A study of Mus musculus with 6 samples.

Results

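Skeletal stem and progenitor cells (SSPCs) of young mice were profiled by ATAC-seq beside those of middle-aged mice. The regions described here had a called peak in every young library but not in every middle-aged one. The peaks of the 6 libraries were merged wherever they overlapped by at least 1 bp. A merged region was kept when young 1, young 2 and young 3 each had a peak in it and at least 1 of middle-aged 1, 2 and 3 had none. This rule gave 733 of 63840 merged regions, or 1.15%. The members were therefore chosen by the measured peak calls of these same libraries, so their presence in young lists and their absence from a middle-aged list are a description and were not tested. The reverse rule, a peak in every middle-aged library and none in at least 1 young library, gave 11623 regions, or 18.2%, which are called mirror regions below. A further 22403 regions were called in all 6 libraries.

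The cells were plated from tibial and femoral bone marrow of untreated C57BL/6 mice and used at passage 1, with 3 young and 3 middle-aged libraries. The labels give age only in words, and nothing says that each library came from its own animal, so the spread between libraries may be partly technical. The culture was an adherent marrow culture with no sort described for ATAC-seq. In such bulk samples, fewer cells of a type and less open chromatin per cell cannot be told apart.

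In ATAC-seq a transposase cuts and tags accessible DNA, and peaks of reads mark accessible sites, many of them promoters and enhancers. Marrow stromal cells that bear the leptin receptor supply CXCL12 and other factors to blood stem cells and give rise to bone and fat cells, while macrophages and other blood cells of the marrow use a separate set of enhancers, many of them bound by the ETS factor PU.1. A peak near a gene marks open chromatin there and does not by itself show that the gene is expressed.

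The lists held 35953 (young 1), 43941 (young 2) and 27628 peaks (young 3) and between 46364 and 48344 in the middle-aged libraries. Read depth was not given. The genome-wide background solved from the deposited values, in extended reads per base, was 3.75, 2.83 and 1.65 in young 1, 2 and 3 and between 2.40 and 2.79 in the middle-aged libraries. Young 3 stood apart, with the shortest list and the lowest background, and since a member must have a peak in it, results that rest on it are given with and without it. The label was checked at start sites. Blood cell genes Ptprc, Spi1, Itgam, Adgre1 and Lyz2 had a peak within 1000 bp of a protein-coding start in 6 of 6 libraries. The stromal genes Runx2 and Ebf3 also had one in 6 libraries, Col1a1 and Pdgfrb in 5, Pdgfra and Cxcl12 in 4, and Lepr and Prrx1 in 0. Of the 133 genes of the blood list, 72, 82 and 72 had such a peak in young 1, 2 and 3 and 84 to 86 in the middle-aged libraries. Of the 125 genes of the stromal list, 63, 73 and 45 did in young 1, 2 and 3 and 76 to 81 in the middle-aged libraries. Young 3 thus had as many blood list start sites with a peak as young 1, and fewer stromal ones.

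Sequences of 7 members are shown so that the kinds of DNA behind the calls can be seen. They are 300 bases around the summit, read 5′ to 3′ on the plus strand of the RefSeq genome GRCm38.p6, which has the coordinates of mm10. Capitals mark matches to 10 short motifs, each searched on both strands: AP-1 TGANTCA, PU.1 and related ETS GAGGAAGT, RUNX TGTGGTTT, CTCF core TAGGGGGC, TEAD GGAATG, EBF CCCNNGGG, CEBP TTGCNNAA, GATA factor AGATAA, RBPJ GTGGGAA and IRF GAAANNGAA. A match is a string of letters and not a shown binding site. The first 3 are the highest-ranking members with no peak in any middle-aged library, called young-only below. They are named by the nearest protein-coding start and lie at chr1:193844478-193844777, chr13:81133594-81133893 and chr5:90694507-90694806.
Camk1g, young-only: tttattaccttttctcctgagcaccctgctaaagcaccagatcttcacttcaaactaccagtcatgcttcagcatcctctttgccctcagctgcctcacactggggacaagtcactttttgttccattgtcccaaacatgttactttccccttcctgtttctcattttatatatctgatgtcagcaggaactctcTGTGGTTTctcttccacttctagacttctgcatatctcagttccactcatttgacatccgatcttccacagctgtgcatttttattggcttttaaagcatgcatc
Adgrv1, young-only: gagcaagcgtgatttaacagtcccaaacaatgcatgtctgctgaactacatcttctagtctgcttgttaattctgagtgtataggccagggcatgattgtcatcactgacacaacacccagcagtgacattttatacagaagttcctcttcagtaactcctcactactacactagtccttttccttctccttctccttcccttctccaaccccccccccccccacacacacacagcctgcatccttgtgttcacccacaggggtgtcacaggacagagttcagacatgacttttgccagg
Rassf6, young-only: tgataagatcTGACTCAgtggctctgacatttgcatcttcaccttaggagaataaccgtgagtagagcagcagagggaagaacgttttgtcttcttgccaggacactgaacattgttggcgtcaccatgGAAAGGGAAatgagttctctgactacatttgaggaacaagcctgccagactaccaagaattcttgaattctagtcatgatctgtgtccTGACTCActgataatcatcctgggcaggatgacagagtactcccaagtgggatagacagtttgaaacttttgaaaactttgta
The next 3 are the highest-ranking members of all, at chr6:3201318-3201617, chr10:40097515-40097814 and chr17:51398040-51398339.
Samd9l, highest rank: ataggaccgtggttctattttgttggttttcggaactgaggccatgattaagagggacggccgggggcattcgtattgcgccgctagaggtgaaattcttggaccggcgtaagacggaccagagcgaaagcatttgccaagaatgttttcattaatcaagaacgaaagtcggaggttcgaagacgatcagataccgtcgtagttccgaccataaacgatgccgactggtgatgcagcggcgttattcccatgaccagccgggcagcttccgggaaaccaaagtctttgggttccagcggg
Slc16a10, highest rank: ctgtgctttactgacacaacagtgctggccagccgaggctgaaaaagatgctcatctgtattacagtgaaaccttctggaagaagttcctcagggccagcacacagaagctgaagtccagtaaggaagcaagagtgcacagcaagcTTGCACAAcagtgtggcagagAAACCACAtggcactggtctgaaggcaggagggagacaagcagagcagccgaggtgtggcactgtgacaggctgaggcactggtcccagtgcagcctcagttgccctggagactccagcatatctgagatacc
Tbc1d5, highest rank: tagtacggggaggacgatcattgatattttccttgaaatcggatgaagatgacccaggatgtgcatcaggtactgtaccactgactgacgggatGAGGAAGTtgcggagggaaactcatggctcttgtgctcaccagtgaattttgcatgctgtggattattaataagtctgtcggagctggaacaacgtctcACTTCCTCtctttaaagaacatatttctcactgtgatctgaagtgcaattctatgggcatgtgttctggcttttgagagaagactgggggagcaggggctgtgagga
The last, at chr2:58157006-58157305, is a young-only member in an intron of Cytip, a gene of lymphoid and myeloid cells that encodes a partner of cytohesin. It was added after its values were seen, because it is on the blood list.
Cytip, young-only: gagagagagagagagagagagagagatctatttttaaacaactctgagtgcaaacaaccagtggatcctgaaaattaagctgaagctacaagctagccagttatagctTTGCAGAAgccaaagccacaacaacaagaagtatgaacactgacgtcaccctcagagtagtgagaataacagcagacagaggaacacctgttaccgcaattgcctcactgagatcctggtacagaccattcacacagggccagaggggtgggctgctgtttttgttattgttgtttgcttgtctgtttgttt

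These 7 windows differed in kind. The window near Rassf6 held the AP-1 letters TGACTCA at bases 11 and 218 and a match to the IRF letters at base 130. The window nearest to Tbc1d5 held the PU.1 letters GAGGAAGT at base 95 and, on the other strand, ACTTCCTC at base 194. The window in Adgrv1 held no match. The window named for Samd9l, the strongest member, matched the 18S ribosomal RNA related sequence that RefSeq annotates on chromosome 17 at 289 of 300 bases, or 96.3%, and the best match of any other member was 38.7%. Its central 31 bases occurred at 2 places in the assembled chromosomes, so reads at this member cannot be assigned to it with certainty. Among all members the central 31 bases had a second copy in 12 of 733, or 1.64% (95% Wilson interval 0.939 to 2.84%, counting error only, as for all such intervals below), against 1.04% of all regions.

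Most members were missing from a single middle-aged library. There were 595 members without a peak in exactly 1 middle-aged library (81.2%), 115 without one in 2 (15.7%) and 23 without one in any (3.14%). The missing library was middle-aged 1 alone for 214 members, middle-aged 2 alone for 217 and middle-aged 3 alone for 164. No middle-aged library thus held most of the missing calls. The mirror regions were spread differently, with 5491 of 11623 (47.2%) missing from young 3 alone.

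**Figure D1:**
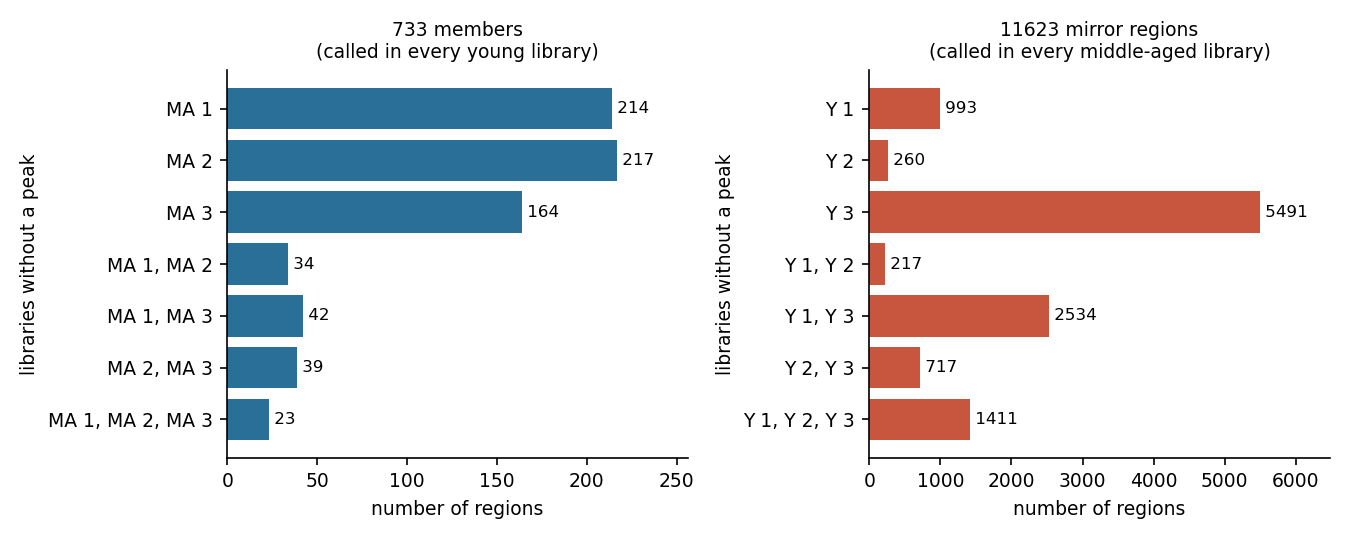
Number of regions (horizontal axis) by the libraries that had no peak in them (vertical axis, Y for young and MA for middle-aged), for the 733 members on the left and the 11623 mirror regions on the right. The 3 bars for members that lacked a peak in MA 1, MA 2 or MA 3 alone stand at 214, 217 and 164, while a single bar, Y 3 alone, holds 5491 of the mirror regions.

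Most missing calls had no peak close by. In the libraries without a peak in the member, the nearest peak lay within 1000 bp for 74 of 313 members in middle-aged 1, 74 of 313 in middle-aged 2 and 58 of 268 in middle-aged 3, or 23.6%, 23.6% and 21.6%. For mirror regions the same share was 10.3%, 14.3% and 8.53% in young 1, 2 and 3. Over all regions with no peak in a library, it was 15.4 to 15.8% in the middle-aged and 8.50 to 14.1% in the young libraries. Each mirror share thus lay close to the share of its own library. Each member share lay above the share of the same middle-aged library. The median distance to the nearest peak was 4209 to 5066 bp for members and 9432 to 17192 bp for mirror regions. The lists differ in length, and whether a close pair of peaks is a single element was not tested.

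The members were weak peaks. Strength was measured as the percentile rank of a peak by −log10 q within its own list, from 0 for the weakest to 100 for the strongest. The median member ranked 26.1 in young 1, 33.7 in young 2 and 21.1 in young 3, against 68.3, 74.1 and 58.6 for regions called in all 6 libraries. Where a middle-aged library had a peak in a member, the median rank was 36.3, 35.2 and 36.1 in middle-aged 1, 2 and 3, with 420, 420 and 465 members called. Mirror regions had medians of 29.6, 36.4 and 19.4 in the young and 37.0, 37.8 and 39.7 in the middle-aged libraries. Members and mirror regions thus lay in the same lower part of every list.

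**Figure D2:**
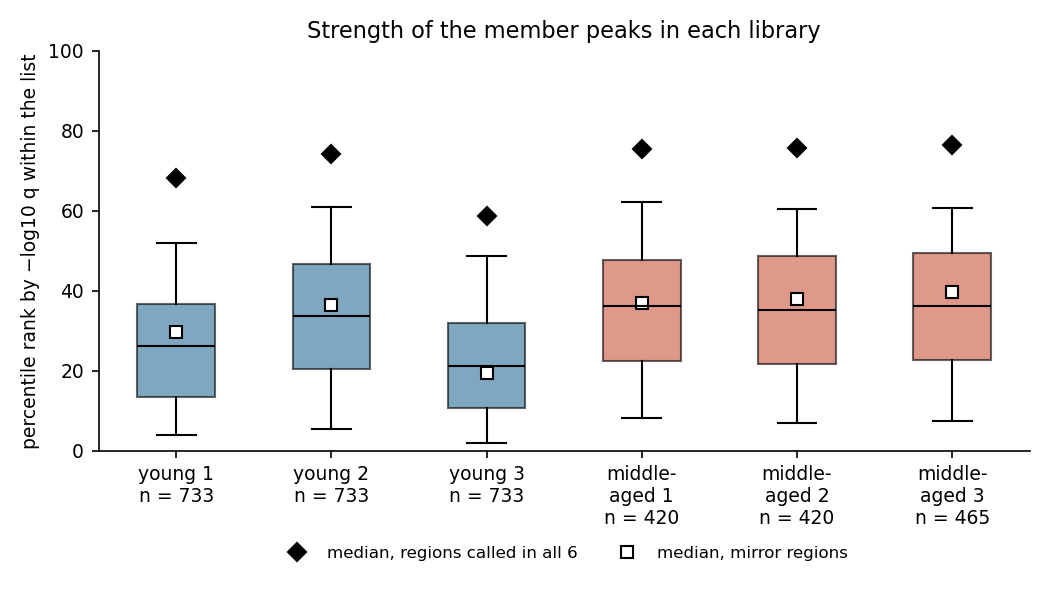
Percentile rank of member peaks by −log10 q within each library's own list (boxes, median and quartiles; whiskers, 5th to 95th percentile; n, members with a peak in that library), with the median of regions called in all 6 libraries (diamonds) and of mirror regions (squares). Member medians of 21.1 to 36.3 lie far below the diamonds, at 58.6 to 76.5, and close to the squares.

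Over the 3 young lists the mean rank of a member had a median of 26.8, with quartiles of 18.7 and 35.1, a lowest value of 2.01 and a highest of 76.2. The median was 27.4 for members missing from 1 middle-aged library, 23.6 for those missing from 2 and 19.8 for the young-only members. Members that more middle-aged libraries lacked were thus weaker in the young ones as well. Summit height is the solved pileup over the genome-wide background of the library. By height, too, members lay below regions called in all 6. The young libraries were ordered differently, since young 3 had the lowest member median by rank and the highest by height. Its median in members was 5.87, 7.42 and 9.11 in young 1, 2 and 3, where regions called in all 6 stood at 11.2, 15.5 and 14.6.

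Where a member had 2 middle-aged peaks, their mean rank was mostly above the young mean. Among the 595 members with 2 middle-aged peaks, the mean rank was higher in young libraries for 162, or 27.2%, and the medians were 27.4 in young and 37.0 in middle-aged libraries. Of the mirror regions with 2 young peaks the young mean was higher in 25.9%, and of the regions called in all 6 libraries in 11.1%. All 3 young ranks lay above both middle-aged ones in 24 of the 595, or 4.03%, and above all 3 middle-aged ones in 0.495% of the regions called in all 6. The middle-aged mean holds called peaks only, and the rule sets how many of them there are. Of the 115 members with 1 middle-aged peak, the young mean was higher in 55, or 47.8%. Ranks from lists of unequal length are not on 1 scale, since a longer list holds more weak peaks below a given region. With a missing peak set to rank 0, every young rank exceeded every middle-aged rank in 72 of 733 members, or 9.82%, where the rule fixes part of that order. Over all regions this held in 0.287%, and the reverse in 15.3%.

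The weakest peaks on either side of the rule lay near the caller's cutoff, which bounds them from below. The lowest −log10 q of a list was between 1.33 and 1.78. Likeness of members and regions outside the rule therefore cannot be read from these lowest values. The weakest young peaks inside had a −log10 q of 1.98 near Mgst2, 2.12 near Sh3bgrl2 and 2.14 near Ncoa7. Just outside, among regions called in all 6 libraries, the weakest middle-aged peaks stood at 1.94 near Gcnt2, 1.94 near Tmem178 and 2.17 near Slc39a11. The median over members of the weakest young peak was 5.29, and over regions called in all 6 the weakest middle-aged peak had a median of 22.6.

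The rule was then read in libraries it had not used. It was applied to 2 young and 2 middle-aged libraries, and the regions found were looked up in the left-out young and the left-out middle-aged library, for each of the 9 pairs. Regions chosen for being called in young and missing in middle-aged libraries were called less often in the left-out young library, with a mean of 48.0% against 72.1% in the left-out middle-aged library. The difference, young minus middle-aged, was −24.1 percentage points on average (SD 19.2 over 9 pairs), ran from −48.5 to −1.15 and was above 0 in 0 of 9 pairs. Its size went with the young library left out. The share was 74.1 to 74.5% in young 2, 47.6 to 48.2% in young 1 and 21.3 to 22.4% in young 3, where middle-aged libraries stood at 66.6 to 77.1%. The mirror rule, which selects for a negative difference, gave −26.6 points. All regions with a peak in any of the 4 libraries gave −15.1 points. The pairs share libraries, so no p-value is given.

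**Figure D3:**
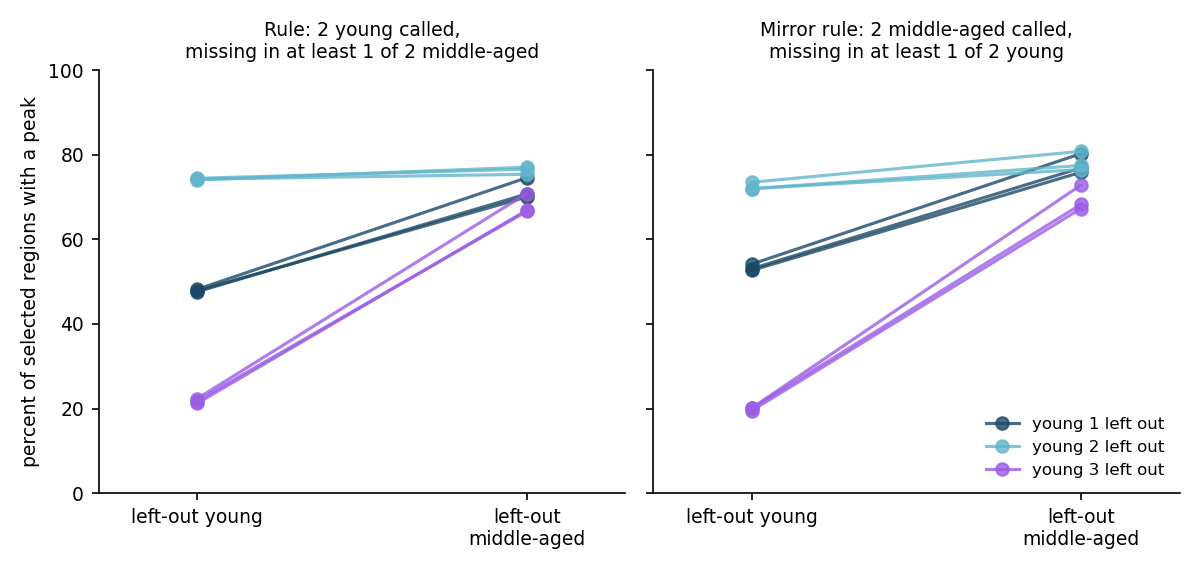
Percent of regions selected in 2 young and 2 middle-aged libraries that had a peak in the left-out young (left point) and the left-out middle-aged library (right point), 1 line for each of the 9 pairs, coloured by the young library left out. In both panels the lines rise from left to right, least with young 2 left out and most with young 3 left out.

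The result changed with the length of the lists. When each list was cut to its 27628 best peaks, the length of the young 3 list, the same procedure gave 58.4% in the left-out young and 57.9% in the left-out middle-aged library, a difference of 0.50 points that was above 0 in 6 of 9 pairs. The cut lists gave 1927 members and 178 young-only regions, and held 214 of the 733 members (29.2%), which are 11.1% of the 1927. The mirror rule, which selects for a negative difference, gave −6.67 points with equal lists. Its shares were 61.3% in the left-out young and 68.0% in the left-out middle-aged library.

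Members lay mostly away from start sites. A start site (TSS) window was 1000 bp to either side of a protein-coding transcript start. A region counted as at a TSS when any part of it overlapped such a window, which a wider region does more easily. This held for 114 members, or 15.6% (95% Wilson interval 13.1 to 18.4%). In the rest the summit lay at an exon for 16, in an intron for 312 and between genes for 291. These were 2.18%, 42.6% and 39.7% of all members. Of all regions 25.2% lay at a TSS, of regions called in all 6 libraries 46.3% and of mirror regions 17.0%. Regions called in the same number of libraries are the closer comparison. Members with 5 of 6 peaks were at a TSS in 15.97% (13.2 to 19.1%) and mirror regions with 5 of 6 in 19.6% (18.6 to 20.5%). Those mirror regions that had the young 3 peak and lacked young 1 or young 2 stood at 14.7% (12.8 to 16.8%), so the position of members differed little from theirs. Of the 23 young-only members, 2 lay at a TSS, those of Marco and Alkbh2. The median distance from summit to the nearest start was 18282 bp, and the median width was 340 bp, against 549 bp for regions called in all 6.

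**Figure D4:**
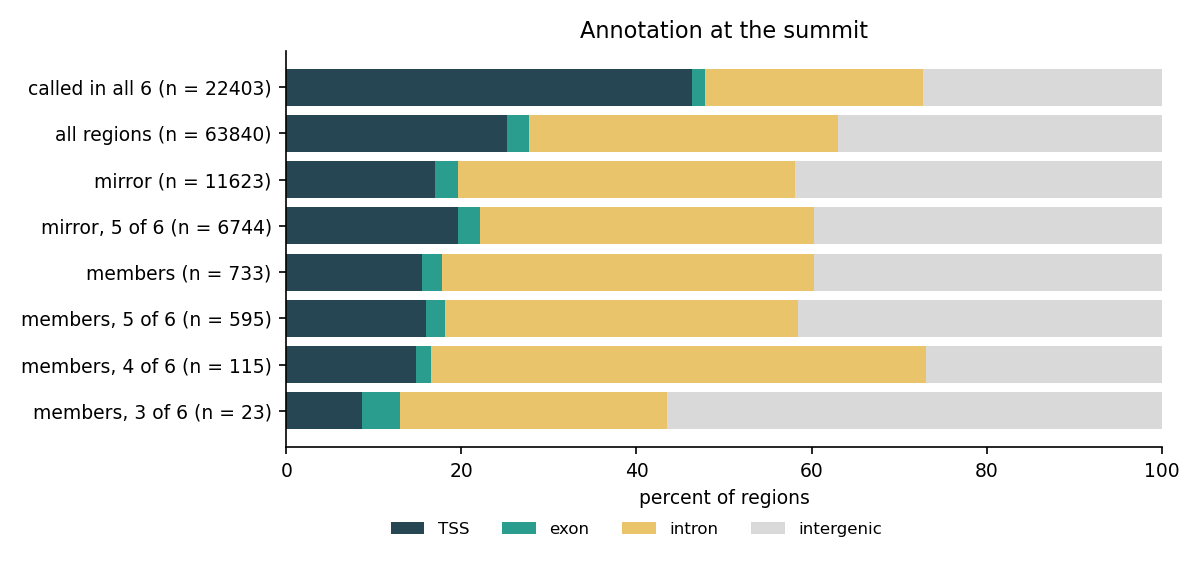
Percent of regions at a TSS, in an exon, in an intron or intergenic. Shown are all regions, regions called in all 6 libraries, mirror regions and members, the latter also by the number of libraries with a peak. A region is at a TSS when any part of it lies within 1000 bp of a protein-coding start. Otherwise the position of its summit sets the class. The TSS share is 46.3% for regions called in all 6, 15.6% for members and 17.0% for mirror regions.

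Members at start sites were checked for other peaks at the same genes. For 74 of the 114 members at a TSS, each library that lacked the member had another TSS peak at a gene of that member. For 40 this was not so. The same share was not counted for other regions, so it is not read as a trait of members. Fbxl12, which encodes an F-box protein of ubiquitin ligases, was nearest to the member at a TSS with the highest mean rank. This member, which also lies in Ubl5, ranked 57.4, 68.0 and 36.1 in young 1, 2 and 3. It had no peak in middle-aged 1 and ranked 68.7 in middle-aged 2 and 74.3 in middle-aged 3. The 2 middle-aged peaks thus stood above all 3 young ones. Itgb2, the beta 2 integrin subunit of leukocytes, came next. Its member ranked 61.2, 46.3 and 50.7 in young 1, 2 and 3, had no peak in middle-aged 1 and ranked 13.2 and 22.4 in middle-aged 2 and 3. All 3 young ranks lay above both middle-aged ones. Itgb2 had another peak within 1000 bp of a start in middle-aged 1. The letters ACTTCCTC, the PU.1 motif on the other strand, lay in the member at chr10:77530302-77530309.

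The remaining 8 of the 10 strongest members at a TSS had mean young ranks between 46.1 and 52.7. Rpl7l1, a gene related to that of a ribosomal protein, ranked 46.3, 53.7 and 53.0 in the young libraries and 79.3 and 74.7 in middle-aged 1 and 3. Pdk2, a kinase that inhibits pyruvate dehydrogenase, ranked 52.8, 47.0 and 47.6 in the young and 66.3 and 11.2 in middle-aged 2 and 3. Foxn3, a forkhead transcription factor, ranked 47.8, 33.5 and 57.1 in the young and 28.2 and 63.4 in middle-aged 1 and 3. The middle-aged peaks lay above the young ones at Rpl7l1 and on both sides of them at Pdk2 and Foxn3. The others were Pcdh7, a protocadherin, Tank, an adaptor of NF-kB signalling, Adgrv1, Fry and Lpcat2, an enzyme of lipid remodelling, and each lacked a peak in 1 middle-aged library.

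Away from start sites the strongest member was the ribosomal RNA-like sequence 183538 bp from Samd9l. It ranked 83.3, 79.9 and 65.5 in young 1, 2 and 3 and in the older cells 71.4 (middle-aged 1) and 77.2 (middle-aged 3), and no peak was called in middle-aged 2. The next lay in an intron of Slc16a10, an aromatic amino acid transporter, with young ranks of 61.1, 71.1 and 46.3 and middle-aged ranks of 38.2 and 59.0 in middle-aged 2 and 3. Both genes' middle-aged peaks overlapped the young ones in rank. The fourth was in an intron of Tfec, a transcription factor related to Mitf that macrophages express, at 47.7, 63.0 and 58.3 in the young and 71.4 and 45.5 in middle-aged 2 and 3. Tfec was not on the blood list. The rest of the 10 were nearest to Tbc1d5, Cwc22, Rabggtb, Htr2c, Cd46, Lgmn and Fam222a, with mean young ranks of 52.5 to 58.3, and each of them had 2 middle-aged peaks.

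The 23 young-only members were weaker. Their mean young rank ran from 8.03 to 40.7, with the highest near Camk1g at 40.5, 45.7 and 35.9 in young 1, 2 and 3. The member in an intron of Adgrv1 ranked 28.8, 45.5 and 41.8, and that nearest to Rassf6 ranked 38.5, 61.1 and 14.9. Within a member, the SD over the 3 young libraries ran from 4.86 to 23.1 points among the 10 strongest. The others of the 10 lay in Cytip and Elmsan1, in introns of Itga8, an integrin of mesenchymal cells, and Rasgef1c, and nearest to Kctd8, Akr1b3 and Spag16. Without young 3 in the rule the young-only regions numbered 255 in place of 23. Among the 23, 2 were nearest to a blood list gene, or 8.70% (2.42 to 26.8%), against 0.960% of all regions, a share that rests on 2 regions and has no test. Of the 23, 0 were nearest to a stromal list gene, where a count of 0 allows a share of up to 14.3% (upper Wilson bound).

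Each gene had few members. The 733 members were nearest to 682 genes, of which 636 had 1 member, 43 had 2, Mef2c and Zfp386 had 3 and Adgrv1 had 5. Adgrv1 encodes a very large adhesion receptor of sensory cells and was the nearest gene of 22 regions, of which 5 were called in all 6 libraries and 5 were mirror regions. Its members were 2 TSS peaks and 3 peaks up to 209571 bp away, and they ranked from 0.36 to 67.0 in the young libraries. One of them was young-only and each of the rest lacked 1 middle-aged library, which was not the same for all. Of all megabases, those with the most members were picked. The megabase of Adgrv1, from 81 to 82 Mb of chromosome 13, held 5 members of 36 regions. That from 95 to 96 Mb of chromosome 16 held 5 of 34, nearest to Ets2, Kcnj15, Kcnj6 and Psmg1. Over all regions the share of members was 1.15%, and the density of the picked megabases was not tested. Chromosome X held 9 members, or 1.23%, against 1.72% of all regions.

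Genes of blood cells were the nearest gene of 10 members, or 1.36% (0.743 to 2.49%), against 0.960% of all regions, 1.07% of regions called in all 6 libraries and 1.14% of mirror regions. Genes of stromal cells were nearest to 6 members, or 0.819% (0.376 to 1.77%), against 1.19%, 0.643% and 1.35%. The intervals of both shares hold the background, so neither list was nearest to members at a share that these counts set apart. The lists differed in distance. All 10 blood members lay within 50 kb of the start, and 0 of 6 stromal members did, while over all regions 555 of 613 blood and 470 of 759 stromal ones lay that close. Endothelial genes were nearest to 0 members, which allows a share of up to 0.521% (upper Wilson bound), against 0.124% of all regions. Without young 3 the rule gave 38 blood and 39 stromal regions among 3153. Over the merged regions the shares were then 1.21% and 1.24%, so the order of the lists turned. It also turned with young 3 kept and all lists cut to equal length, at 0.830% for blood and 0.882% for stromal genes. In mirror regions that had the young 3 peak and lacked young 1 or young 2, blood genes stood at 2.00% (1.36 to 2.93%) and stromal genes at 1.36%.

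**Figure D5:**
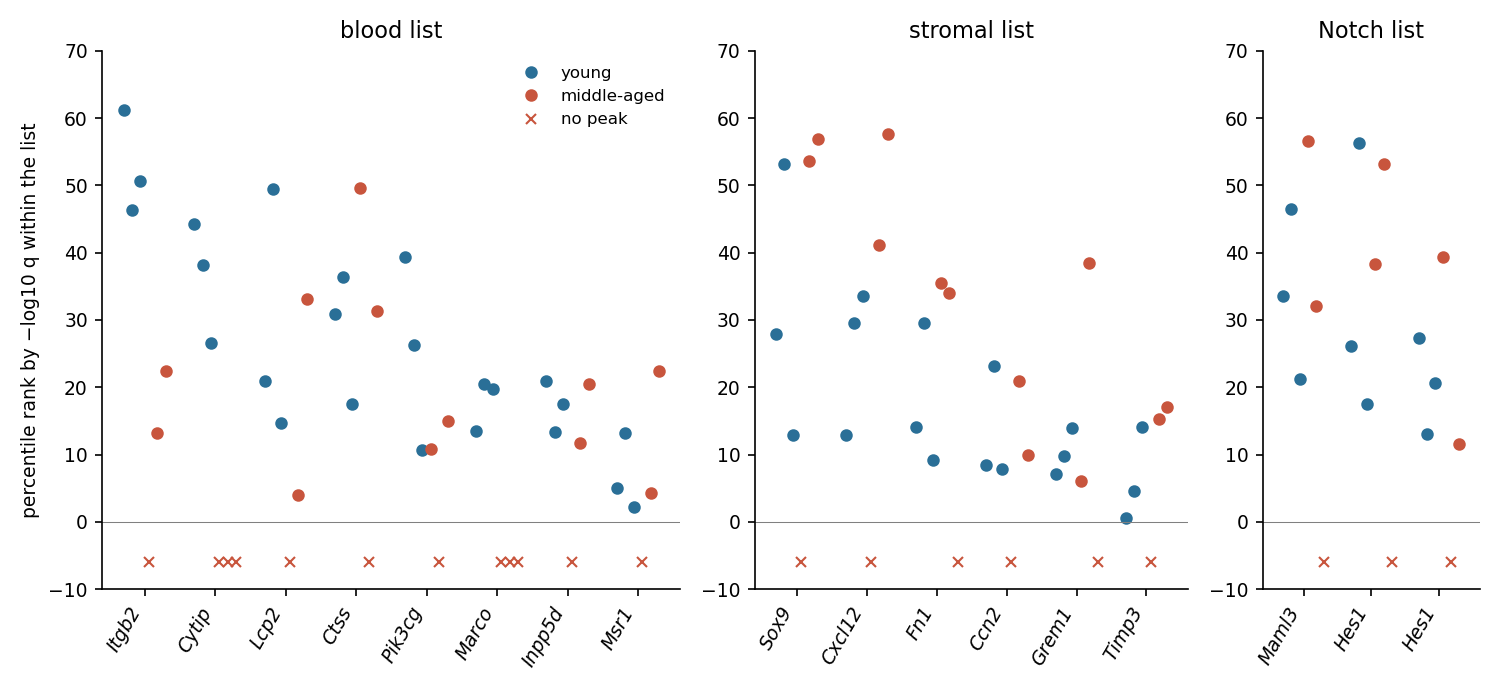
Percentile rank by −log10 q within each library's list (vertical axis) of members nearest to genes of the blood (8 of 10 shown), stromal and Notch lists, with young libraries in blue and middle-aged ones in red, each in the order 1, 2, 3, and crosses below 0 for libraries with no peak. Hes1 appears 2 times because 2 members are nearest to it. Itgb2 is the gene with 2 middle-aged peaks at which all 3 young points lie above both.

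Among the blood members, 2 were young-only. Marco encodes a scavenger receptor of macrophages, and its member lay 30 bp from the start and ranked 13.5, 20.5 and 19.8 in young 1, 2 and 3. No middle-aged library had any peak within 1000 bp of a Marco start, though 10 regions in all were nearest to the gene and 1 of them was called in all 6 libraries. The Cytip member, in an intron 3339 bp from the start, ranked 44.3, 38.1 and 26.6. Cytip kept a TSS peak in all 6 libraries. Both members had no middle-aged rank to set beside these values.

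The other blood members described here had 2 middle-aged peaks each. Lcp2, an adaptor of T cell and myeloid receptors, ranked 20.99, 49.5 and 14.7 in the young and 4.07 and 33.2 in middle-aged 2 and 3. Pik3cg, the catalytic subunit of phosphoinositide 3-kinase gamma, ranked 39.4, 26.2 and 10.6 in the young and 10.9 and 14.99 in middle-aged 1 and 3. Ctss, the lysosomal protease cathepsin S, ranked 30.9, 36.4 and 17.5 in the young and 49.7 and 31.4 in middle-aged 1 and 3. Young and middle-aged ranks overlapped at these 3 genes. Inpp5d, a lipid phosphatase of blood cells, and Msr1, a macrophage scavenger receptor, had mean young ranks of 17.3 and 6.84 and lacked a peak in middle-aged 1. Itgb2, Lcp2, Pik3cg, Inpp5d and Msr1 each had a TSS peak in all 6 libraries, and Ctss had one in 0. The windows of the Itgb2, Lcp2 and Pik3cg members held the PU.1 letters, and those of Marco, Cytip, Ctss, Inpp5d and Msr1 did not. These letters were in 13.6% of all members and 8.04% of all regions.

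The stromal members were distant from their genes. The nearest start lay 383052 bp away for Sox9, a transcription factor of cartilage, whose member ranked 28.0, 53.1 and 12.9 in the young and 53.6 and 56.8 in middle-aged 2 and 3. The member 110902 bp from Cxcl12, which retains blood stem cells in the marrow, ranked 12.9, 29.5 and 33.5 in the young and 41.1 and 57.7 in middle-aged 2 and 3. Fn1, which encodes fibronectin, had a member at 14.1, 29.6 and 9.14 in the young and 35.5 and 34.1 in middle-aged 1 and 2. At these 3 genes both middle-aged peaks ranked above every young one. The members nearest to Ccn2, a matricellular protein, Grem1, an inhibitor of bone morphogenetic proteins, and Timp3, an inhibitor of metalloproteinases, had mean young ranks of 13.2, 10.3 and 6.41. At Ccn2 the young ranks were 8.50, 23.2 and 7.89 and those of middle-aged 2 and 3 were 20.9 and 9.91. At Grem1 they were 7.18, 9.84 and 13.96 in the young and 6.01 and 38.4 in middle-aged 1 and 2. Timp3 stood at 0.54, 4.57 and 14.1 in the young and at 15.3 and 17.1 in middle-aged 2 and 3. The groups overlapped at Ccn2 and Grem1, and at Timp3 both middle-aged peaks ranked above every young one. Those of Grem1 and Timp3 lay in introns of Fmn1 and Syn3, so the nearest start is not the gene that holds them.

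The Notch pathway, the subject of the study, had 36 genes on its list and was nearest to 3 members, or 0.409%, against 0.320% of all regions. Maml3, a coactivator of Notch transcription complexes, had a member 62 bp from its start that ranked 33.6, 46.4 and 21.3 in the young and 56.6 and 32.2 in middle-aged 1 and 2. No other Maml3 start had a peak in middle-aged 3. Hes1, a repressor that Notch induces, was nearest to members 217298 and 52003 bp away. The nearer ranked 27.4, 13.1 and 20.7 in the young and 39.4 and 11.6 in middle-aged 1 and 3, and the groups overlapped. Of the 25 regions nearest to Hes1, 9 were called in all 6 libraries.

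Motif content was read in the 300 bases around each summit, a property the rule did not use. The PU.1 and related ETS letters were in 100 of 733 members, or 13.6% (11.3 to 16.3%), against 8.04% of all regions, 9.47% of regions called in all 6 libraries and 7.24% of mirror regions. Away from start sites the shares were 15.02%, 9.42%, 14.5% and 7.998% in the same order, so there members did not differ from regions called in all 6 by more than counting error. The IRF letters were in 109 members, or 14.9% (12.5 to 17.6%), against 10.2%, 9.49% and 10.0%, and the RBPJ letters in 73, or 9.96% (7.996 to 12.3%), against 7.07%, 6.38% and 7.60%. RBPJ is the DNA-binding partner of Notch. The TEAD letters were in 112 members, or 15.3% (12.9 to 18.1%), against 17.9%, 13.4% and 19.8%. AP-1 letters stood at 20.7% against 19.004% of all regions, RUNX at 5.59% against 5.08%, CEBP at 14.5% against 15.3%, EBF at 10.6% against 12.2%, GATA at 12.1% against 10.1% and CTCF at 0.819% against 1.34%. The base content of regions, their strength and their source library go with these shares, and their part was not tested.

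Young 3 moved these shares. In the 3150 merged regions that fit the rule when young 3 is not used, PU.1 letters were in 10.2%, IRF letters in 11.9%, RBPJ letters in 7.97% and TEAD letters in 17.9%. Leaving out any other library instead gave 12.4 to 13.9% for PU.1 and 13.3 to 15.99% for IRF. In the 297 regions called in young 3 and in no other library, PU.1 letters were in 11.1% (8.02 to 15.2%). The share was 8.94% (7.27 to 10.95%) for regions called in young 1 alone and 6.42% for young 2 alone. The intervals of young 3 and young 1 overlapped. Repeats varied likewise. The window was mostly repeat-masked in 25 members, or 3.41% (2.32 to 4.99%), against 1.91% of all regions. The share was 0.978% of regions called in all 6, 1.67% of mirror regions and 2.70% of regions in none of these sets. The window was also mostly repeat-masked in 4.74% of regions called in young 1 alone, 2.66% in young 2 alone and 4.04% in young 3 alone. It was so in 2.67% of regions that fit the rule without young 3. The median GC content was 48.7%, against 49.3% for mirror regions and 54.7% for regions called in all 6.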

How the data were processed

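ATAC-seq peak lists of 3 young and 3 middle-aged SSPC libraries were analysed, grouped by their titles. Per the study's methods, bcl2fastq produced the reads, Bowtie2 mapped them to mm10, Sambamba dropped duplicates, and the authors called peaks with MACS. The deposited lists number 1 for each library. The deposited score is a whole-number form of the deposited −log10 q, and the deposited fold enrichment is a ratio of summit pileup to local background, with the −log10 p and −log10 q of the same peak caller. Whether reads were shifted for the transposase is not given in the sources used here. The authors' differential comparison needs reads and was not repeated.

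Peaks were merged with a minimum overlap of 1 bp. Peaks were ranked by −log10 q within each list, and pileup and genome-wide background were solved from the deposited fold and −log10 p under a Poisson model. Depth as a read number was not given, so no interval for depth is given, and which peaks are called depends on depth. Regions were annotated with 54340 protein-coding starts of GENCODE M21, and sequence came from RefSeq's GRCm38.p6 with pysam 0.24.0. Intervals are Wilson 95% intervals and treat regions as independent, which neighbouring regions are not. No filter on low values was applied, so all 733 members enter every count. No test was run, since the rule used the contrast.

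The members and the gene lists of 133 blood, 125 stromal, 20 endothelial and 36 Notch genes were chosen with earlier results of these data known, and 132 of the blood genes had an annotated start. Named are the 10 strongest members at and away from a TSS, the 10 strongest young-only members, the members nearest to list genes (values of 2 blood members are not reported here) and genes with 4 or more members. The motif comparisons by library, the count of sequence copies, the ribosomal RNA comparison, the start sites used to check the label and the values around Cytip and Itgb2 motifs were added after seeing the data. Other settings tried were lists cut at a −log10 q of 5, equally long lists, thinning to the lowest background, a reciprocal overlap of 50%, each library left out, a TSS window of 500 bp and nearest genes within 50 kb.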

Additional observations from a re-analysis of the deposited data

How the results depend on the processing

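A −log10 q of at least 5 gave 659 members, of which 415 were shared with the 733, and a held-out difference of −22.9 percentage points that was above 0 in 2 of 9 pairs. Thinning to the lowest background left 622 members, 597 of them shared, and 2 members nearest to stromal genes. Equally long lists gave 1927 members, 178 of them young-only, with 16 nearest to blood and 17 nearest to stromal genes, and turned the held-out difference to 0.50 percentage points. That setting removes by construction any difference in the number of peaks. A reciprocal overlap of 50% gave 1239 members, 49 of them young-only, 32.3% at a TSS, a median young rank of 33.8 and 10 members nearest to stromal genes, and the cause was not tested. A TSS window of 500 bp held 12.01% of members. With nearest genes limited to 50 kb, 0 stromal members remained.

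With 1 library left out at a time, members ran from 516 to 3153, young-only members from 56 to 255, the share at a TSS from 14.5 to 16.2%, the median young rank from 22.0 to 27.3, members nearest to blood genes from 5 to 38 and those nearest to stromal genes from 2 to 39. The highest counts were those without young 3, and without young 1 there were 1469 members. Fewer libraries make the young-only condition easier to meet. The shares with PU.1, IRF and RBPJ letters fell to 10.2%, 11.9% and 7.97% without young 3, an alternative chosen after seeing the data.

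No paired analysis was possible because no label ties a replicate number across the age groups and the results come from no test. Peak lists hold no value below the caller's threshold, and a missing peak is a call that did not pass it.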
